A study of Mus musculus with 13 samples.

Results

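Genes of cholesterol and fatty acid synthesis were examined by RNA sequencing in myotubes formed by C2C12 cells, a mouse myoblast line that stops dividing and fuses when serum is reduced. The set is a list of 36 gene symbols that covers the enzymes from acetyl-CoA to cholesterol, the enzymes that make, elongate and desaturate fatty acids, the regulators that sense sterols, and genes of sterol transport. Of these, 35 were in the gene table, and each of the 35 had a mean normalized count of 10 or more and entered the test, out of 13142 genes tested. The other one, Hmgcs1, was not analysed here. Some well known genes of the pathway are outside the list and were not analysed here either.

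All cells were wild-type C2C12 myotubes of 1 line, kept in low-serum medium with horse serum. On day 8 of differentiation they received vehicle (DMSO, the CON group) or 10 µM palmitoylethanolamide (PEA, an endogenous fatty acid amide), and RNA was taken 24 h later. There were 6 CON and 6 PEA libraries of poly-A RNA. Each of 3 experimental rounds used a pair of wells per treatment, and the round behind a given library is not labelled, so that p-values over 6 against 6 libraries may be too small.

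Cells adjust lipid synthesis to their sterol content. When sterol in the endoplasmic reticulum is low, SCAP carries the SREBP transcription factors to the Golgi, where they are cut and released to switch on the genes of sterol and fatty acid synthesis. When sterol is plentiful, INSIG proteins hold SCAP back, and oxysterols activate the LXR receptors, which switch on sterol export. The SREBP-2 factor acts mainly on sterol genes and SREBP-1c on fatty acid genes. In muscle these pathways supply membranes of growing and fusing cells.

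In PEA myotubes 15 of the 35 members were higher than in CON and 0 were lower at an adjusted p below 0.05 (edgeR's quasi-likelihood test with Benjamini-Hochberg adjustment over all genes tested). This was 42.9% of the members, where 6.31% of all genes tested were called higher and 4.74% lower. For lower members, 2 had an unadjusted p below 0.05 (Insig2 and Elovl6), and DESeq2 and limma-voom also called 0. The called members were Scap, Insig1, Acat2, Mvd, Idi1, Fdps, Fdft1, Cyp51, Msmo1, Nsdhl, Acly, Scd1, Fads1, Fads2 and Stard4. The median log2 fold change over the 35 members was 0.17, beside 0.01 over all genes tested, and 29 of the 35 values were above 0. Changes were modest: the highest was 0.59 for Stard4 and the lowest was -0.31 for Elovl6, which did not pass the test. In 6 members (Cyp51, Acly, Scd1, Fads1, Fads2 and Stard4) each PEA library was above each CON library, a separation seen in 2.53% of all genes tested, and in 0 members was each PEA library below each CON library, seen in 1.81%.

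**Figure D1:**
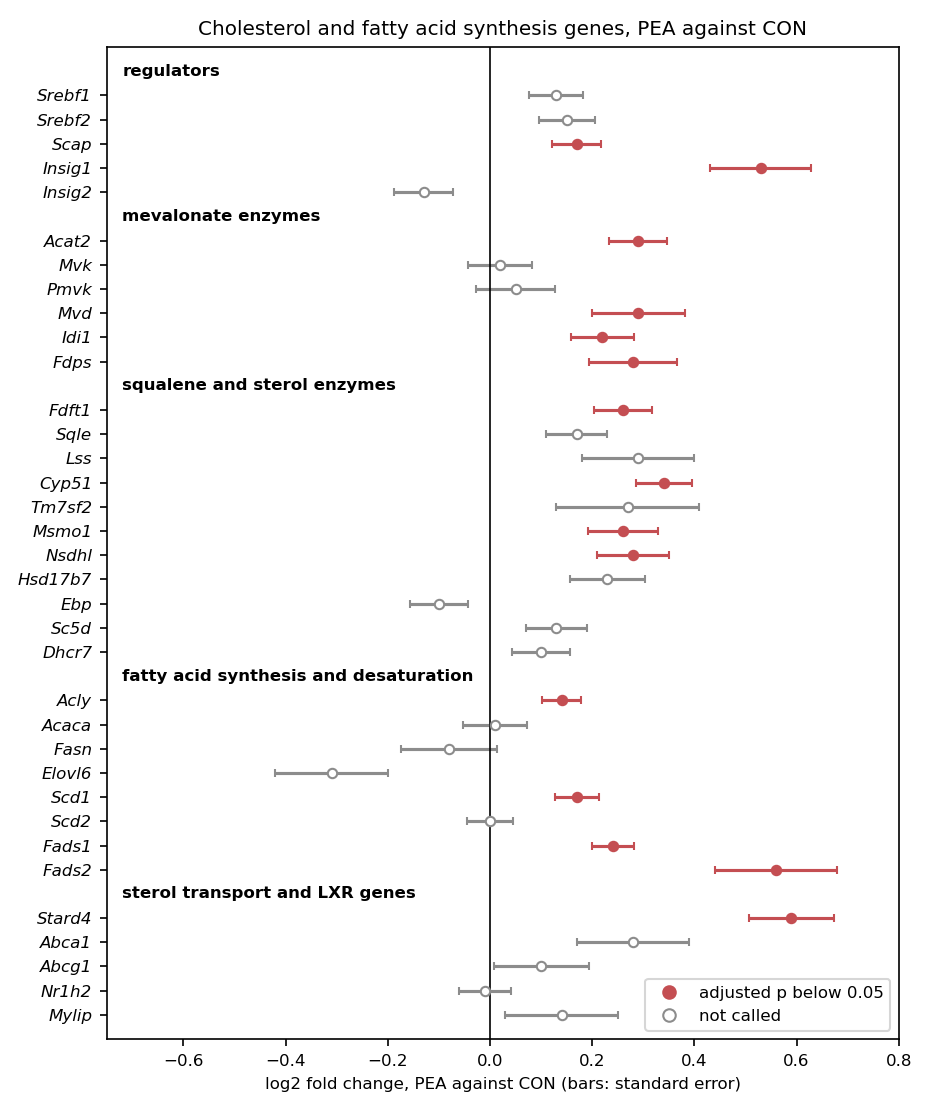
Log2 fold change of the 35 measured members between PEA and CON, grouped by role, with bars for the standard error of the edgeR fit over 6 libraries per group. Filled red points mark the 15 members called higher, which run from 0.14 for Acly to 0.59 for Stard4, and open grey points mark the 20 that were not called.

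Libraries held between 12354845 and 50397444 estimated counts, and the lowest count of any member in any library was 77, for Tm7sf2. Values below are normalized counts, that is estimated counts divided by 1 factor per library. Markers of several cell types moved with the treatment or with single libraries. Cycling cell markers were higher in PEA, with 11 of 12 called, a median log2 fold change of 0.84 and a summed level of 9676 to 14469 in CON and 15776 to 18318 in PEA. Their most abundant members were Rrm2, Pcna, Mcm5 and Top2a. Myotube markers had a median log2 fold change of -0.22, with 13 of 14 values below 0. They were called lower in 4 of 14 (Actn2, Tnni2, Tnnt3 and Myh8), with a summed level of 115418 to 180141 in CON and 117397 to 138535 in PEA. The most abundant, Acta1, Mylpf, Myh3 and Myog, were not called. These defining genes of the labelled cell type were expressed in both groups. Of 8 markers of myoblasts and reserve cells 2 were higher and 2 lower, with summed levels of 11155 to 12953 in CON and 11270 to 12007 in PEA, led by Sdc4, Cd34, Id3 and Hes1, and Pax7 had a log2 fold change of -0.02. Of the 9 adipocyte markers 3 were tested. Cebpa was called higher (log2 fold change 0.43), and Fabp4 (-0.33) and Pparg (0.15) were not called. The summed level was 474 to 694 in CON and 645 to 725 in PEA, and most of it was Cebpa (mean 465 over all libraries). Plin1 was near 0 (mean 1.02), and Adipoq, Cidec, Lep, Retn and Cfd were not in the table. Macrophage markers summed to 74.3 to 155 in CON and 103 to 134 in PEA with 0 of 2 tested genes called, their highest was Cd68, Ptprc, Csf1r and Itgam were below the filter on low counts, and Adgre1 was not in the table.

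CON replicate 2 stood apart from the other CON libraries in the members. It was the highest CON library in 18 of the 35 members and in 10 of the 15 called ones. Its mean centred log2 level over the 35 members was 0.03, where the other CON libraries lay between -0.20 and -0.07 and the PEA libraries between 0.01 and 0.14. It also had the highest level of cycling cell markers in CON, at 0.15, and CON replicate 3, at -0.91, had the lowest. CON replicate 3 was the lowest CON library in 9 of the 15 called members. The part of cycling cells in these differences was not tested, and a change in cell number and a change in RNA per cell cannot be told apart in bulk RNA. Without CON replicate 2 the test called 18 members higher, beside 9.32% of all genes, and 1 lower (Elovl6), and 12 members had each PEA library above each CON library, beside 5.52% of all genes tested. Without CON replicate 3, 10 members were called higher, beside 4.84% of all genes, and 0 lower. The count of 15 fell furthest to 7 without PEA replicate 6, beside 3.72% of all genes, and to 9 without CON replicate 6 (4.05%) or PEA replicate 5 (3.79%). Calls over the whole table moved the same way as those of the members, with 1232 genes higher without CON replicate 2 and 640 without CON replicate 3, against 829 with all libraries.

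**Figure D2:**
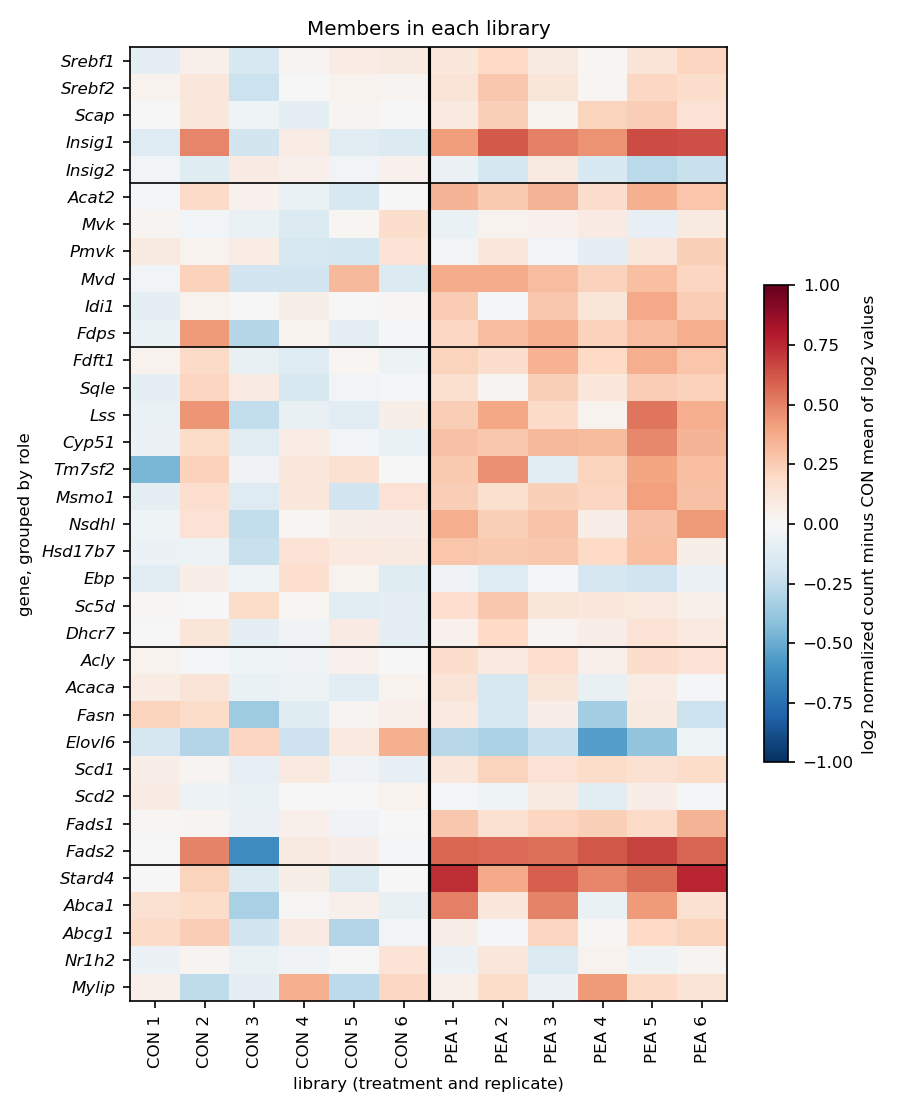
Normalized counts of the 35 members in the 12 libraries, as log2 values minus the mean of the log2 values in CON, with genes in rows grouped by role and libraries in columns. The PEA columns are mostly red in the regulators, the sterol enzymes, Fads2 and Stard4, and the column of CON replicate 2 is red in Insig1, Fdps, Lss and Fads2.

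Among the regulators, 2 of 5 passed the test, and the 2 INSIG genes differed from each other. Insig1 encodes the INSIG protein whose gene is itself a target of the SREBP factors (GRCm39 chr5:28276315-28283668, plus strand). Its normalized count had a lowest value of 459, a median of 478 and a highest value of 731 in CON, and of 695, 768 and 818 in PEA. All CON libraries but replicate 2 were below the lowest PEA library, and 4 of 6 PEA libraries were above each CON library. Insig1 rose by 44.8% (log2 fold change 0.53, SE 0.10, adjusted p = 0.00392). The log2 fold change was 0.65 without CON replicate 2 (adjusted p = 2.0e-05) and 0.50 without CON replicate 3 (adjusted p = 0.00613).

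Insig2, the paralog of Insig1 whose protein also retains SCAP, did not follow it. It ranged from 1762 to 2032 in CON (median 1931) and from 1595 to 2037 in PEA (median 1716), with a log2 fold change of -0.13 (adjusted p = 0.165). The groups overlapped, although 4 of 6 PEA libraries were below each CON library. The ratio of Insig1 to Insig2 within a library needs no scaling between libraries. It was 0.226 to 0.415 in CON (median 0.255) and 0.363 to 0.513 in PEA (median 0.44). The difference in mean log2 ratio was 0.68 (exact permutation test, two-sided, p = 0.00866, and 0.0227 after Benjamini-Hochberg adjustment over 3 ratios). The smallest p this test can give with 6 against 6 libraries is 0.00216.

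Scap, the escort of the SREBP factors, lay between 1747 and 1994 in CON (median 1854) and between 1904 and 2204 in PEA (median 2106). It rose by 12.3% (log2 fold change 0.17, adjusted p = 0.0359), with all PEA libraries above the CON median, and it was called in 3 of 12 fits that left out 1 library. The genes of the factors themselves were not called. Srebf1 had a mean of 1283 (CON) and 1399 (PEA) (log2 fold change 0.13, adjusted p = 0.124), and Srebf2 had 2903 and 3227 (log2 fold change 0.15, adjusted p = 0.078). These counts sum the SREBP-1a and SREBP-1c transcripts of Srebf1, and they do not measure the cut, active form of either protein. The ratio of Srebf1 to Srebf2 had medians of 0.453 in CON and 0.434 in PEA, a mean log2 difference of -0.03 (exact permutation p = 0.439).

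The enzymes from acetyl-CoA to farnesyl diphosphate, the mevalonate part of the pathway, had 4 of 6 members called and a median log2 fold change of 0.25. Acat2 joins 2 acetyl-CoA molecules in the first step. It had a lowest, median and highest value of 794, 884 and 1011 in CON and 1002, 1098 and 1135 in PEA. Only CON replicate 2 reached the PEA range. Acat2 rose by 22.3% (log2 fold change 0.29, SE 0.057, adjusted p = 0.00518). A near-identical gene, Acat3, lies beside it, and how the counting divided reads between them is uncertain.

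Fdps, which makes farnesyl diphosphate, was between 967 and 1583 in CON (median 1142) and between 1355 and 1512 in PEA (median 1460). The highest value of all 12 libraries was CON replicate 2, and the other 5 CON libraries were below each PEA library. Its log2 fold change was 0.28 (adjusted p = 0.0445), 0.38 without CON replicate 2 (adjusted p = 3.3e-04) and 0.23 without CON replicate 3 (adjusted p = 0.0749). Mvd, the decarboxylase that yields isopentenyl diphosphate, had medians of 307 (CON) and 401 (PEA) and was called (log2 fold change 0.29, adjusted p = 0.0476). Fdps and Mvd were close to the threshold, and each kept its call in 2 of the 12 fits that left out 1 library. Idi1, the isomerase of the next step, had a CON range of 636 to 709 and a PEA range of 672 to 883, with 5 of 6 PEA libraries above each CON library (log2 fold change 0.22, adjusted p = 0.0339), and it kept its call in 4 of those 12 fits. The kinases in between showed smaller values. Mvk went from a mean of 504 to 509 (adjusted p = 0.893) and Pmvk from 405 to 420 (adjusted p = 0.727), so that in one stretch of consecutive steps 2 genes were not called and the next 3 were.

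The squalene and sterol enzymes had 4 of 11 members called and a median log2 fold change of 0.26, with 10 of the 11 values above 0. Together with the mevalonate enzymes, 8 of 17 sterol enzymes were called higher. Fdft1, squalene synthase, is the first enzyme that commits carbon to sterols. It had values of 975, 1057 and 1221 (lowest, median and highest) in CON and 1207, 1268 and 1373 in PEA. It rose by 20.1% (log2 fold change 0.26, SE 0.057, adjusted p = 0.00879), and 5 of 6 PEA libraries were above each CON library.

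Cyp51, the lanosterol demethylase (GRCm39 chr5:4123416-4154751, minus strand), had the clearest separation among the sterol enzymes. Its lowest, median and highest values were 1081, 1127 and 1318 in CON and 1399, 1449 and 1616 in PEA. The groups did not overlap, and even CON replicate 2, the highest CON library, was below each PEA library. Cyp51 rose by 26.4% (log2 fold change 0.34, SE 0.055, adjusted p = 0.0016). By its p-value it was gene 92 of those tested.

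Enzymes that act after Cyp51 to remove methyl groups from the sterol ring were also called. Msmo1, the methylsterol monooxygenase, had a CON range of 700 to 897 and a PEA range of 893 to 1061 (log2 fold change 0.26, adjusted p = 0.0233). Nsdhl, the decarboxylating dehydrogenase, had a CON range of 591 to 775 and a PEA range of 733 to 942 (log2 fold change 0.28, adjusted p = 0.0176). In both, 5 of 6 PEA libraries were above each CON library. Hsd17b7, the ketoreductase of the same steps, had means of 363 and 423 (log2 fold change 0.23, adjusted p = 0.0566). It was called in 3 of 9 alternatives that kept all libraries, among them DESeq2 (adjusted p = 0.047) and limma-voom (adjusted p = 0.0417). With 1 library left out it was called in 1 of 12 fits.

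The other sterol enzymes were not called. Sqle, squalene epoxidase, an enzyme known for slow turnover of substrate, had means of 1847 in CON and 2073 in PEA with each PEA library above the CON median (adjusted p = 0.0777). Lss, which closes the sterol ring, had means of 402 and 490, a log2 fold change as large as that of Acat2 (0.29) and a wider spread among CON libraries (coefficient of variation 17.8%, beside 8.17% for Acat2; adjusted p = 0.0903). Each was called in 1 of 12 fits that left out 1 library, the fit without CON replicate 2 (log2 fold changes 0.21 and 0.39). Tm7sf2, a sterol reductase and the least abundant member, had a log2 fold change of 0.27 (adjusted p = 0.214). The enzymes of the last steps had smaller values: Sc5d 0.13, Dhcr7 0.10 and Ebp -0.10, each as a log2 fold change, with adjusted p of 0.151, 0.285 and 0.264.

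**Figure D3:**
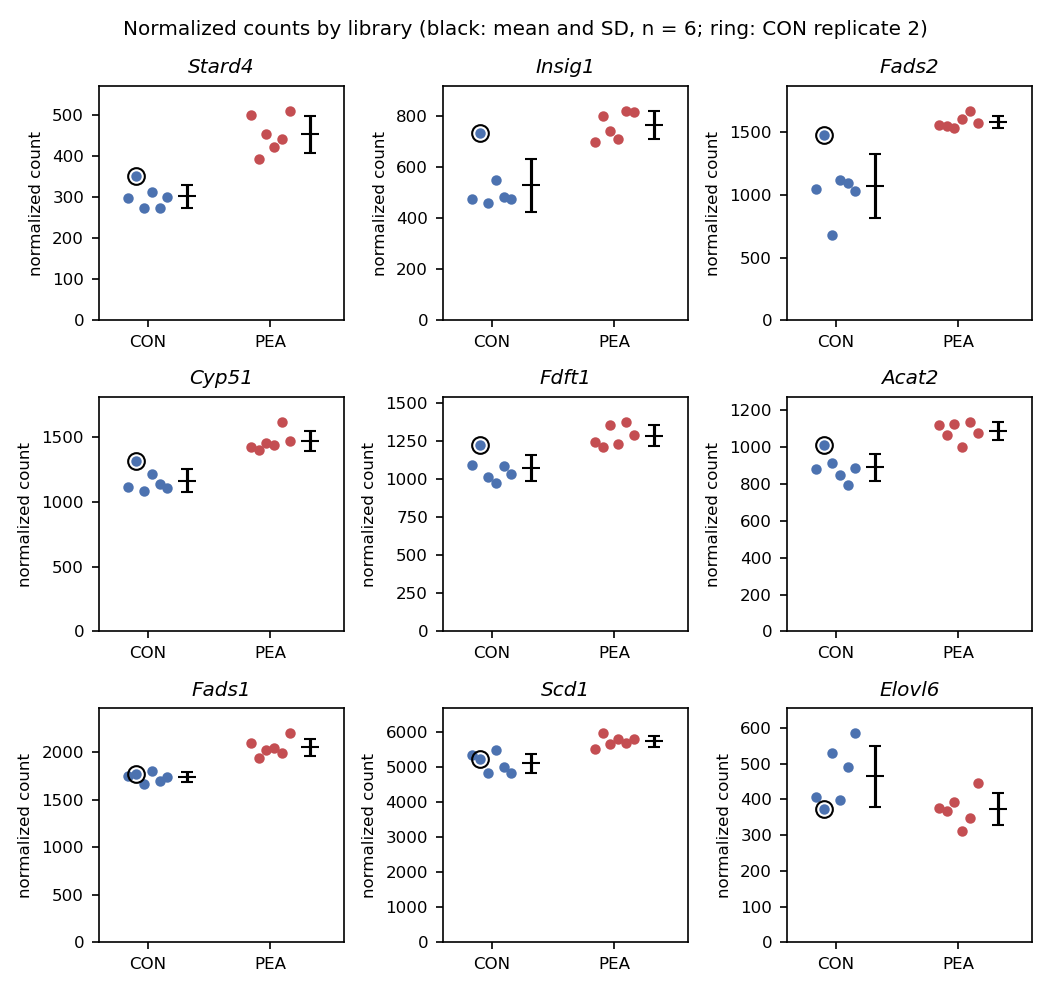
Normalized counts of 9 members in each library, with CON in blue and PEA in red, and the mean and SD of 6 libraries in black beside each group. A black ring marks CON replicate 2, which is the highest CON library for Stard4, Insig1, Fads2, Cyp51, Fdft1 and Acat2, and the 2 groups do not overlap for Stard4, Fads2, Cyp51, Fads1 and Scd1.

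Promoter sequence was compared because many of these genes are known targets of the SREBP factors, which bind sterol regulatory elements and act together with the factor NF-Y at CCAAT boxes. RefSeq promoters (build GRCm38.p6, an older build than that of the count tables) were at hand for 27 of the 35 measured members, with 35 promoters of 32851 in the table. The 250 bases before each start were searched on both strands. The letters TCACNCCAC, a form of the sterol element, were in the promoters of 0 member genes and in 1.05% of all promoters. The shorter form CACNCCAC, which is contained in it, was in 2 members (Acat2 and Insig1, 5.71% of member promoters) and in 5.29% of all promoters. CCAAT was in 19 member genes and 57.1% of member promoters, against 33.8% of all promoters. Of the 10 called members with a promoter, 6 had it (Insig1, Cyp51, Idi1, Msmo1, Mvd and Nsdhl), and of the 17 members with a promoter that were not called, 13 had it. The E-box CACGTG was in 17.1% of member promoters and 6.02% of all, and the GC box GGGCGG in 71.4% and 32.7%, with 10 of the 10 called members and 12 of the 17 others holding it. These matches are letters in a window and no evidence of binding.

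Shown here are windows of 30 bases around every CCAAT or CACNCCAC match in the 7 called members that held one, each 5′ to 3′ on the strand of the gene. Capitals mark the match, which reads ATTGG, or GTGGNGTG for the shorter sterol element, where it lies on the opposite strand. The number is the distance in bases from the first base of the match to the start of the gene.
Acat2, 181 bases before the start, chr17:12960888-12960917, minus strand: tggatcctccaCACCCCACcctaacccgac
Acat2, 53 bases before the start, chr17:12960760-12960789, minus strand: cgtgaggaggcGTGGCGTGgaggccatagc
Insig1, 216 bases before the start, chr5:28071183-28071212, plus strand: ccgccctcctcccATTGGctccggcggcct
Insig1, 9 bases before the start, chr5:28071382-28071411, plus strand: gggcgcggtacgtgtagtgtcGTGGCGTGt
Cyp51, 29 bases before the start, chr5:4104710-4104739, minus strand: ccgctgtccgccaCCAATctggtcctgaga
Idi1, 45 bases before the start, chr13:8885548-8885577, plus strand: ttgcctccagctgATTGGcgagcccgggca
Idi1, 14 bases before the start, chr13:8885576-8885605, plus strand: catggtccaaggtgccATTGGctggcgacc
Msmo1, 160 bases before the start, chr8:64733722-64733751, minus strand: tccatccgcgcagCCAATgactggcgccgc
Msmo1, 96 bases before the start, chr8:64733658-64733687, minus strand: gccttagcacggaCCAATcactgcacggcg
Msmo1, 55 bases before the start, chr8:64733617-64733646, minus strand: ggagtggggcggaCCAATtacgacaggcga
Mvd, 60 bases before the start, chr8:122443466-122443495, minus strand: cggcctgtcgcctATTGGacagcacgggaa
Mvd, 27 bases before the start, chr8:122443433-122443462, minus strand: cccggccagcgggCCAATcatatggcagcg
Nsdhl, 109 bases before the start, chrX:72918399-72918428, plus strand: cagcccgcttcccATTGGtttgggaacgaa
Nsdhl, 20 bases before the start, chrX:72918488-72918517, plus strand: aaagactagcctcATTGGgcaaaatcatgc
Idi1, Mvd and Nsdhl each held a pair of CCAAT boxes and Msmo1 held 3. Acat2, with a pair of CACNCCAC matches, had a log2 fold change of 0.29, and Cyp51, with a single CCAAT box, had 0.34. A relation between the number of matches and the fold change was not tested.

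Genes of fatty acid synthesis gave mixed results. The desaturases Fads1, Fads2 and Scd1 and the citrate-cleaving enzyme Acly were called higher, 4 of 8, each without overlap between the groups. The desaturase Scd2, acetyl-CoA carboxylase, fatty acid synthase and the elongase Elovl6 were not called. The median log2 fold change of the 8 genes was 0.08.

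Fads2 desaturates linoleate and alpha-linolenate in the first step towards long polyunsaturated fatty acids. Its lowest, median and highest values were 677, 1068 and 1476 in CON and 1532, 1562 and 1666 in PEA. The PEA libraries were close together and all above CON, while CON ran from replicate 3, the lowest, to replicate 2, the highest (coefficient of variation 23.7% in CON and 3.13% in PEA). Fads2 rose by 47.7% (log2 fold change 0.56, SE 0.12, adjusted p = 0.00716), with log2 fold changes of 0.68 without CON replicate 2 and 0.46 without CON replicate 3 (adjusted p = 1.7e-04 and 0.00164). Fads1, the next desaturase of the same route and its neighbour in the genome (GRCm39 chr19:10160167-10174241, beside Fads2 at chr19:10038130-10079203), had values of 1672, 1748 and 1803 in CON and 1939, 2037 and 2202 in PEA. In Fads1 CON replicate 2 did not stand apart, and the gene rose by 18% (log2 fold change 0.24, SE 0.041, adjusted p = 0.00248).

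Scd1, which makes oleate from stearate, had a CON range of 4824 to 5477 and a PEA range of 5516 to 5972. It rose by 12.4% (log2 fold change 0.17, SE 0.043, adjusted p = 0.0213). Its paralog Scd2 was the most abundant member, with means of 15442 and 15416 (adjusted p = 0.997). Per kilobase of exon, Scd2 stood at 2050 normalized counts over all libraries and Scd1 at 753, followed by Nr1h2 at 490, Fads1 at 339 and Srebf2 at 328, while Tm7sf2, Acaca and Lss were lowest at 24.5, 36.7 and 39.2. The ratio of Scd1 to Scd2 was 0.305 to 0.354 in CON (median 0.328) and 0.345 to 0.406 in PEA (median 0.37), with 4 of 6 PEA libraries above each CON library. The mean log2 ratio differed by 0.17 (exact permutation p = 0.0152, adjusted 0.0227). Reads shared by these paralogs were divided between them by the authors' estimation, which makes their separate levels less certain than their sum.

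Acly, which cleaves citrate to cytosolic acetyl-CoA, was tightly spread, with 1990 to 2121 in CON and 2129 to 2325 in PEA. Its rise was small (10.0% or log2 fold change 0.14, adjusted p = 0.0328), and it was called in 5 of 12 fits that left out 1 library. The enzymes that use this acetyl-CoA for fatty acids had values near their CON level. Acaca had means of 672 in CON and 679 in PEA (adjusted p = 0.913), and Fasn had 2462 and 2333 with overlapping ranges of 1912 to 2847 and 1933 to 2613 (adjusted p = 0.639). Elovl6, which elongates palmitate to stearate, had a CON range of 375 to 586 and a PEA range of 312 to 446, a log2 fold change of -0.31 (adjusted p = 0.0848), and 3 of 6 PEA libraries below each CON library.

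Among the genes of sterol transport and the LXR receptors, 1 of 5 was called. Stard4 encodes a soluble carrier of cholesterol between membranes and is itself induced when sterol is low (GRCm39 chr18:33332197-33346942, minus strand). Its lowest, median and highest values were 273, 299 and 351 in CON and 391, 448 and 509 in PEA. The groups did not overlap. Stard4 rose by 50.4% (log2 fold change 0.59, SE 0.083, adjusted p = 5.8e-04), and by its p-value it was gene 39 of those tested.

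Abca1, the LXR target that exports cholesterol to lipoprotein particles, ranged from 364 to 519 in CON and from 436 to 648 in PEA (log2 fold change 0.28, adjusted p = 0.0971). Abcg1, another LXR-driven exporter, had means of 329 and 354 (adjusted p = 0.522). Mylip, an LXR target whose ubiquitin ligase removes lipoprotein receptors, had 396 and 438 (adjusted p = 0.42). Nr1h2, the gene of LXR beta, had 1702 and 1690 (adjusted p = 0.946). Among these 4 genes the edgeR test called 0, and Abca1 alone had an unadjusted p below 0.05.

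**Figure D4:**
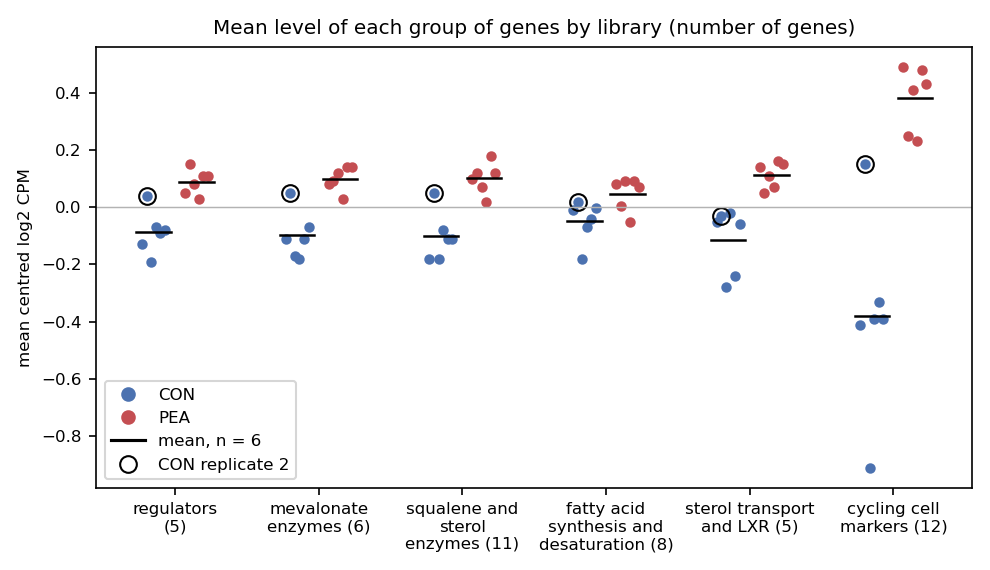
Mean centred log2 CPM of each role and of the cycling cell markers in each library, with a line at the mean of 6 libraries. The sterol enzymes lie at -0.18 to 0.05 in CON and 0.02 to 0.18 in PEA, and CON replicate 2, ringed in black, is the CON library nearest to PEA in the regulators, in both groups of sterol enzymes and in the cycling cell markers.

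Some members also varied together among libraries of the same treatment. After each group's mean was removed, the median pairwise Pearson correlation over 12 libraries was 0.22 for the 17 sterol enzymes, 0.18 for all 35 members and -0.001 for all genes tested. By role it was 0.35 for the regulators, 0.25 for the squalene and sterol enzymes, 0.19 for the fatty acid genes, 0.04 for the mevalonate enzymes and -0.04 for the transport and LXR genes. The pairs named here were picked from those with the highest or lowest correlations among the members. Insig1 and Fdps had r = 0.92, Insig1 and Lss 0.85, and Fdps and Fads2 0.86. These values share the depth and composition of the same libraries, and CON replicate 2 carried part of them: without it the median was 0.09 for sterol enzymes and 0.14 for all members, and Insig1 with Fdps had 0.68. The pair Fasn and Abca1 had r = 0.93, and 0.92 without CON replicate 2. Scap and Insig2 had r = -0.84, and -0.81 without it. They are given as descriptions with no test.

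Other genes of the same pathways, 56 in 4 lists of which 54 were tested, were called higher in 3 (5.56%) and lower in 3 (5.56%), close to the share among all genes, and their median log2 fold change was -0.02. Of 11 genes of SREBP processing and sterol sensing, 0 were called higher and 1 lower. The lower one was Rnf145, a ubiquitin ligase of the endoplasmic reticulum that acts in sterol sensing, at 1959 to 2638 in CON and 1502 to 1804 in PEA (log2 fold change -0.51, adjusted p = 5.3e-04), without overlap. Of 15 genes of the isoprenoid branch, which draws on farnesyl diphosphate for prenyl groups, dolichol and ubiquinone, 0 were called higher and 1 lower (Fnta, a farnesyltransferase subunit, log2 fold change -0.17, adjusted p = 0.0267). Of 15 tested genes of acetyl-CoA supply and fatty acid elongation, 0 were called in either direction. Of 13 tested genes of sterol uptake, esterification and transport, 3 were higher. They were Scarb1, a lipoprotein receptor (0.38, adjusted p = 0.00681), Soat1, which esterifies cholesterol (0.21, adjusted p = 0.0151), and Lrp8, another receptor (0.44, adjusted p = 0.0412), each value a log2 fold change. The phospholipid-remodelling enzyme Lpcat3, a known LXR target, was lower (log2 fold change -0.19, adjusted p = 0.0184), without overlap between the groups. Thrsp and Cyp7b1 were not in the table.

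Calls also depended on a correction applied to all genes. When the trend of each library with GC content and exon length was removed, 9 members were called higher, beside 5.32% of all genes, and 1 lower (Elovl6, log2 fold change -0.36, adjusted p = 0.0428), beside 9.71%. Among all called genes the share that was higher went from 57.1% to 35.4%. The median log2 fold change became 0.12 over members and -0.04 over all genes tested, a shift of similar size in both. The fitted trend held a constant for each library, so its removal also rescaled each library as a whole. How far the lost calls came from this rescaling, or from the members' own composition or length, was not tested. Insig1, Acat2, Fdps, Fdft1, Cyp51, Nsdhl, Fads1, Fads2 and Stard4 kept their call. Scap, Mvd, Idi1, Msmo1, Acly and Scd1 did not, with log2 fold changes of 0.09 to 0.24 and adjusted p of 0.0526 to 0.145. Among the other pathway genes 8 were called after removal, against 6 before. Hacd1, Hacd3 and Lipa were then called lower (adjusted p = 0.0399, 0.0305 and 0.026), and Lrp8 lost its call (adjusted p = 0.0642).

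**Figure D5:**
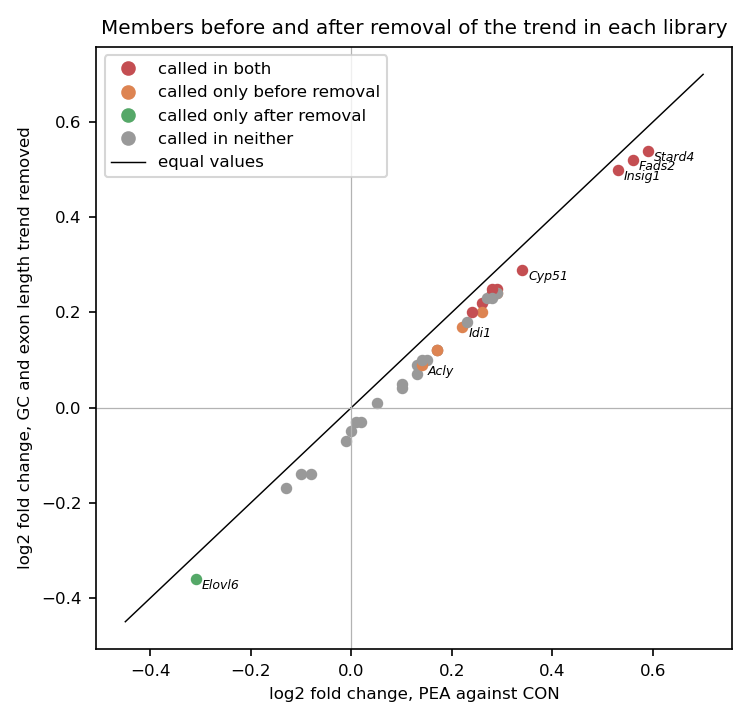
Log2 fold change of the 35 members before (x axis) and after (y axis) the trend of each library with GC content and exon length was removed, with a line of equal values. All points lie below the line, the 9 members called in both fits run from Fads1 at 0.24 and 0.20 to Stard4 at 0.59 and 0.54, and Elovl6 at -0.31 and -0.36 was called lower only after removal.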

How the data were processed

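RNA was measured in 12 libraries (6 CON, 6 PEA) of C2C12 myotubes. PEA replicate 2 has 2 runs in the labels, a first and a top-up, that share 1 set of values, and was counted once. Per the labels and methods, the authors filtered reads by quality, mapped them to mm39 (STAR 4.4.1d in the processing notes), and quantified Ensembl genes with Partek Flow. They deposited estimated counts per gene, and a second table holding a signal, the deposited normalized counts, which are those counts divided by 1 DESeq2 median-ratio factor per library. Estimated counts were rounded and tested with edgeR 4.0.16 in R 4.3.3 (quasi-likelihood test, TMM, default filter on low counts, two-sided, Benjamini-Hochberg, threshold 0.05) over 13142 of 16382 genes. Symbols, positions, exon lengths and GC content came from GENCODE for GRCm39, which gave 16343 genes a match. Centred levels used log2 CPM with a prior count of 2, and ratios added 0.5 to each count.

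Depth was 12354845 to 50397444 counts per library, and errors cover counting error and spread between these libraries. The members, gene lists and tests were chosen with earlier results of these data known. Named genes were all members in the table, up to 4 called genes per list of other pathway genes, and up to 4 of the most abundant genes per marker list. Other genes named were singled out after their values were seen. Alternatives were DESeq2 1.42.0, limma 3.58.1 (voom, and the deposited normalized counts plus 1), median-of-ratios factors, other filters, thinning to the smallest library, removal of GC and length trends by splines with 5 degrees of freedom, a threshold of 0.01, the replicate number as a block, and each library left out. The values without CON replicate 2 of groups that do not overlap, and of correlations, were added after the data had been seen. The edgeR fits with TMM, median-of-ratios factors, the block or the trend removed, DESeq2 and both limma fits were run on simulated data. The other filters, the thinned libraries and the fits without 1 library were not. Simulated libraries were independent of each other, unlike paired wells.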

Additional observations from a re-analysis of the deposited data

Results flagged for a closer look

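Single libraries stood far from the other 5 of their group in 4 of 76 sets of 6 values checked by Dixon's test. This is close to the 1 set in 20 that chance gives. Srebf2 in CON replicate 3 had a normalized count of 2491, below the other CON libraries. Insig1 in CON replicate 2 had 731, above the other CON libraries and inside the PEA range, and the log2 ratio of Insig1 to Insig2 in the same library was -1.27, against a CON mean of -1.88. Cyp51 in PEA replicate 5 had 1616, above the other PEA libraries. Insig1 was called in each of the 12 fits that left out 1 library. For this gene CON replicate 2 was the CON library nearest to PEA, so that leaving it out is no check on the call. The cause of these values was not tested.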

How the results depend on the processing

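The count of members called higher (15) went to 9 with the GC and length trend removed and to 7 at an adjusted p below 0.01, and leaving out 1 library gave 7 (without PEA replicate 6) to 18 (without CON replicate 2), with 9 without CON replicate 6 and 9 without PEA replicate 5. The 7 members called in all 12 of these fits were Insig1, Acat2, Fdft1, Cyp51, Fads1, Fads2 and Stard4. Members called lower (0) became 1 with the replicate block, 1 with the trend removed, and 0 to 1 with a library left out, which were Elovl6 and, without PEA replicate 3, Insig2. Calls among other pathway genes (6) fell to 2 at 0.01, and lay at 4 to 9 with a library left out. Calls over the whole table (1452) fell to 405 at 0.01, and ranged from 778 to 2203 with a library left out, highest without CON replicate 2. Log2 fold changes near 0 changed sign: Mvk (-0.03) and Acaca (-0.03) with the trend removed, and Scd2 with no filter (0.00051) or at least 10 counts per library (0.003). The cause was not tested. With 1 library left out, their log2 fold changes ranged from -0.01 to 0.05 (Mvk), -0.01 to 0.05 (Acaca), -0.02 to 0.02 (Scd2) and -0.03 to 0.02 (Nr1h2). No pairing by replicate number was seen: deviations of same-numbered libraries correlated at -0.0829 to 0.0649, and 0 of 6 numbers matched best with their own. Low correlations cannot show that same-numbered wells came from different rounds. With the replicate number as a block 14 members were called higher and 1570 genes overall. The 3 ratios kept their direction and side of the threshold in every alternative run. Libraries thinned to the smallest total gave 14 members higher.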
